A study of Mus musculus with 4 samples.

Results

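The cells described here are 109 of the 13213 cells in a single-cell RNA table of mouse MC38 colon tumours, chosen by their own transcripts as natural killer (NK) cells. A cell was taken when its deposited values of Ncr1 and Tyrobp were above 0 and its Ncr1 value was above those of Cd3e and Cd8b1. They made up 0.825% of all cells (exact 95% Clopper-Pearson interval 0.678 to 0.994). They were selected on measured values of Ncr1, Tyrobp, Cd3e and Cd8b1, so the levels of these 4 genes are given as a description, and no test was made on any gene of the gated cells. Part of these cells carried T cell receptor complex transcripts at T cell levels, so the data go partly against the label NK cell, and they are called Ncr1-gated cells below.

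The tumours were orthotopic implants of MC38, a colon carcinoma line, in C57BL/6 mice, and 5 tumours were pooled into 1 library per arm, taken 2 weeks after treatment began. The 4 arms were vehicle (so named by the protocol, while the sample entry says that no treatment was given), anti-PD-1 antibody given 3 times a week for 5 doses in all, atractylenolide I (ATT-I) at 50 mg/kg daily, and the combination of both agents. The age and sex of the mice, and any enrichment of cells before loading, are not given in the sources used here. With 1 pooled library per arm there is no replicate check: no p-value is given, and intervals cover counting error only. Across the 4 libraries the median cell held 6826 to 23910 recovered unique molecular identifiers (UMIs), a UMI marking 1 captured transcript molecule.

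NK cells are innate lymphocytes that kill without a rearranged antigen receptor. They weigh signals from activating receptors, many of which signal through the adaptors Tyrobp (DAP12) and Fcer1g, against inhibitory receptors that bind MHC class I, and they kill with perforin and granzymes. In the mouse the MHC class I receptors are the Ly49 lectins, encoded by the Klra genes next to the NKR-P1 (Klrb1) and NKG2 (Klrc, Klrk1) genes in the NK gene complex, and each NK cell expresses only some of them. In tumours NK cells are studied for killing cells that have lost MHC class I and for recruiting dendritic cells through the chemokine XCL1.

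By library, 17 of 155 vehicle cells passed the rule, a share of 11.0% (exact 95% interval 6.52 to 17.0). In anti-PD-1 84 of 12562 cells passed, 0.669% (0.534 to 0.827). In ATT-I 7 of 297 passed, 2.36% (0.953 to 4.80), and in the combination 1 of 199, 0.503% (0.0127 to 2.77). The vehicle share stood above the other 3, and the anti-PD-1 library gave most of the gated cells because it held most of the cells. Shares are of captured cells, and whether arms differ in number of NK cells or in what was loaded cannot be told apart. The gated cells were deeper than the T cells of their own library: their median was 36235 UMIs in vehicle, 12283.5 under anti-PD-1 and 18028 under ATT-I, against 15786, 7300 and 7066 in the T cells, and 27718 in the 1 combination cell against 24105.5. When every cell was first thinned to 3000 UMIs, the shares were 4.58% in vehicle, 0.522% under anti-PD-1 and 1.44% under ATT-I, and no combination cell passed.

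Of 292 cells with an Ncr1 UMI, 197 also held a Tyrobp UMI, 112 of those had Ncr1 above Cd3e, and 109 had it above Cd8b1 as well. Gated cells held a median of 8 Ncr1 UMIs (1 to 30) and 26 Tyrobp UMIs (1 to 112). The margin over Cd3e and Cd8b1 was 1 UMI in 10 gated cells, 2 in 14 and 5 or more in 70. Just outside, 13 cells with both transcripts had Ncr1 equal to the higher of Cd3e and Cd8b1, and 17 had it 1 UMI below. A Cd3e UMI was found in 51 of the gated cells and a Cd8b1 UMI in 33. The comparison cells were the 12274 cells with Cd3e above 0 and Ncr1 at 0, called T cells below: 128 in vehicle, 11681 under anti-PD-1, 269 under ATT-I and 196 in the combination. The other 183 cells with an Ncr1 UMI, outside the gate, held a median of 1 Ncr1 and 0 Tyrobp UMIs.

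The NK label was set beside transcripts that the rule did not read. A CD3 signal was taken as the sum of Cd3d, Cd3g (chains of the CD3 complex) and Trac (the T cell receptor alpha constant region), in UMIs per 10000 UMIs of the cell. Its median was 0 in gated vehicle cells (highest 7.18), 5.73 in gated anti-PD-1 cells (0 to 57.8), 1.24 in ATT-I (0 to 18.2) and 0.361 in the combination cell, against 23.8 in T cells of vehicle and 42.5 in T cells of anti-PD-1. Gated vehicle cells lay apart from T cells on this signal, while gated anti-PD-1 cells ran from none to above the T cell median. Both classes were chosen with Cd3e, so genes that accompany it may follow the choice, and the difference is a description. A split was made after these values were seen, at the 1st percentile of the T cells (12.1): 74 gated cells fell below it (CD3-low) and 35 at or above it (CD3-high). The CD3-low cells were 17 of 17 in vehicle, 50 of 84 in anti-PD-1, 6 of 7 in ATT-I and 1 of 1 in the combination, so 34 of the 35 CD3-high cells came from anti-PD-1. The split cuts a range: 7 gated cells lay within 25% of the cut.

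**Figure D1:**
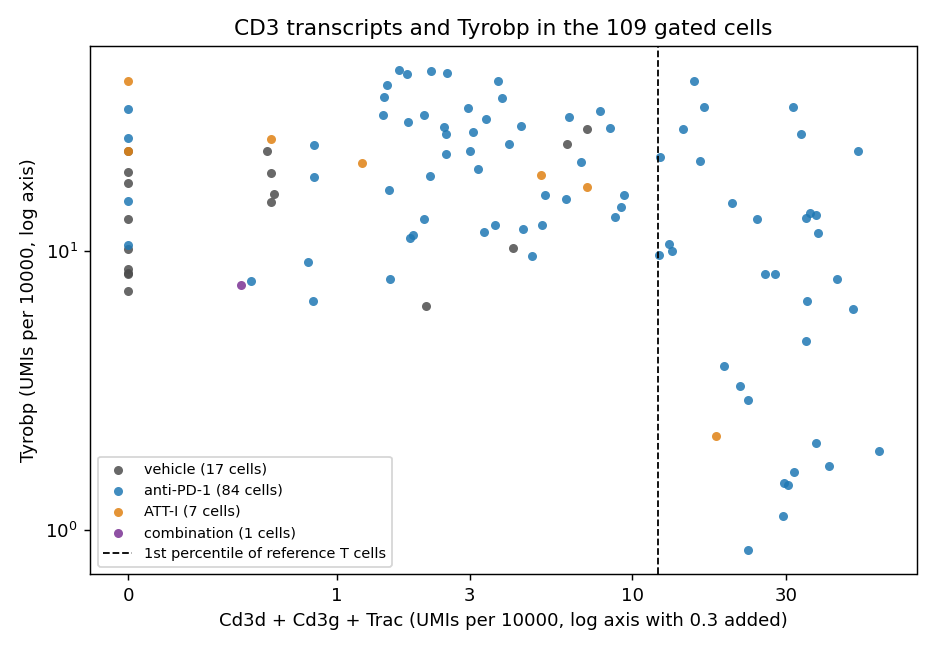
Each point is 1 of the 109 gated cells, coloured by library, with its Tyrobp level against its CD3 signal (both UMIs per 10000, log axes), and the dashed line is the 1st percentile of T cells. All 17 vehicle cells lie left of the line and 34 anti-PD-1 cells lie at or right of it.

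CD3-high cells of anti-PD-1 had a median CD3 signal of 29.4 and held a Trac UMI in 33 of 34 cells. Their median depth was 9708 UMIs, between the T cells of that library (7300) and the CD3-low cells (13337.5). Their CD3 and coreceptor transcripts were composed of 34.0% Cd3d, 45.1% Cd3g, 15.8% Trac and 5.08% Cd8a over 1044 UMIs, against 26.0%, 40.3%, 18.5% and 15.1% in T cells of the same library. The 259 such UMIs of CD3-low anti-PD-1 cells split 29.7%, 37.1%, 22.4% and 10.8%. In CD3-low vehicle cells 87.0% of the 54 UMIs were Cd3g, most of them in single cells with 23, 12 and 10 Cd3g UMIs. None of the 4 genes was read in 9 of the 17 cells, and 15 had no Trac UMI. A transcript with 1 UMI is listed at 0 in 9 of the 17 cells, so a single Trac UMI would not be seen there. Zbtb16, the transcription factor that defines invariant NKT cells, was at 0 in all 109 gated cells, which allows a share of cells with a UMI of up to 2.75%, against 0.448% of T cells. Doublets, free RNA in droplets and T cells that express Ncr1 could each give a gated cell with T cell transcripts, and their part was not tested.

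Promoters of the genes that carry the results below are shown for their place in the genome and for how alike these windows are between Ly49 genes. Each is the 250 bases before a gene's start in RefSeq (GRCm38.p6), 5′ to 3′ on the gene's strand, for the natural cytotoxicity receptor gene of the rule and for 3 Ly49 genes that differ among the gated cells: Klra8 and Klra4, which encode the activating receptors Ly49H and Ly49D, and Klra1, which encodes the inhibitory receptor Ly49A. The windows are chr7:4337465-4337714 (+) for Ncr1, chr6:130129899-130130148 (-) for Klra8, chr6:130067272-130067521 (-) for Klra4 and chr6:130386875-130387124 (-) for Klra1. Capitals mark TGTGGT on either strand, a core that Runx factors bind.
Ncr1: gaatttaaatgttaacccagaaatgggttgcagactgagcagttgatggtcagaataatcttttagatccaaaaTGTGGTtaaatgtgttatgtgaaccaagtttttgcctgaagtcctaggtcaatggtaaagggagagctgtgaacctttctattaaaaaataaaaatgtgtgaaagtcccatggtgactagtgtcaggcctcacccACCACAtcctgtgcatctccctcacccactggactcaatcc
Klra8: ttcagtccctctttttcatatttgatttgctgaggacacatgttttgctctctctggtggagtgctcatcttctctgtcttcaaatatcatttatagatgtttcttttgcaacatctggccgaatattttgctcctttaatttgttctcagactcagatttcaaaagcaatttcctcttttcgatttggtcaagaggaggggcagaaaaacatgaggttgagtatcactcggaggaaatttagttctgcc
Klra4: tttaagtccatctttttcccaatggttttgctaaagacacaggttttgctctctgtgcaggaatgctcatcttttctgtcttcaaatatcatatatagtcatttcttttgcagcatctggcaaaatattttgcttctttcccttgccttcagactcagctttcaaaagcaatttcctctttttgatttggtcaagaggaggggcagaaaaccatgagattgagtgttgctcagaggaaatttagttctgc
Klra1: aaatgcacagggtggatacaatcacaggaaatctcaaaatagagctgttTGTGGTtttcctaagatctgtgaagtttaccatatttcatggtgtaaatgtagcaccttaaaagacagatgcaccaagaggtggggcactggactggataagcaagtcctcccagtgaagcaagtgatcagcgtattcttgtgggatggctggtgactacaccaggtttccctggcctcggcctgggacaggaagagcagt
The motif began 176 and 41 bases before the Ncr1 start and 201 bases before the Klra1 start, and did not occur in the Klra8 and Klra4 windows; 14.0% of 32851 RefSeq promoter windows of this length hold it. The Klra8 and Klra4 windows were identical at 84.5% of 251 aligned columns, against 44.6% for Klra8 and Klra1 and 60.7% for Klra8 and Klra6. These windows lie before the transcripts, so they do not show how alike the counted transcripts are. The files do not say how any reads shared between Klra genes were counted, so the level of any single Klra gene is uncertain.

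Levels below are the mean over cells of UMIs per 10000 UMIs, and a ratio is the log2 of the level in gated cells over that in T cells. Of 7742 genes found in at least 10% of the cells of either class, 315 were at least 2-fold higher in gated cells (4.07%) and 362 at least 2-fold lower (4.68%), with a median log2 ratio of -0.06. The rule chose the cells by expression, so these counts are a description. The median log2 ratio was 3.30 over 8 Ly49 receptors, 1.15 over 13 NKR-P1 and NKG2 receptors and, without Cd3e and Cd8b1, -1.78 over 21 genes of the T cell receptor complex. In the NK gene complex, from Klrb1a to Klra1 (chr6:128609227-130386874, GRCm38), 33 genes were in the table and 24 passed the filter: 15 were at least 2-fold higher, 1 (Gm156) was lower, and together the 15 were 4.76% of all higher genes.

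**Figure D2:**
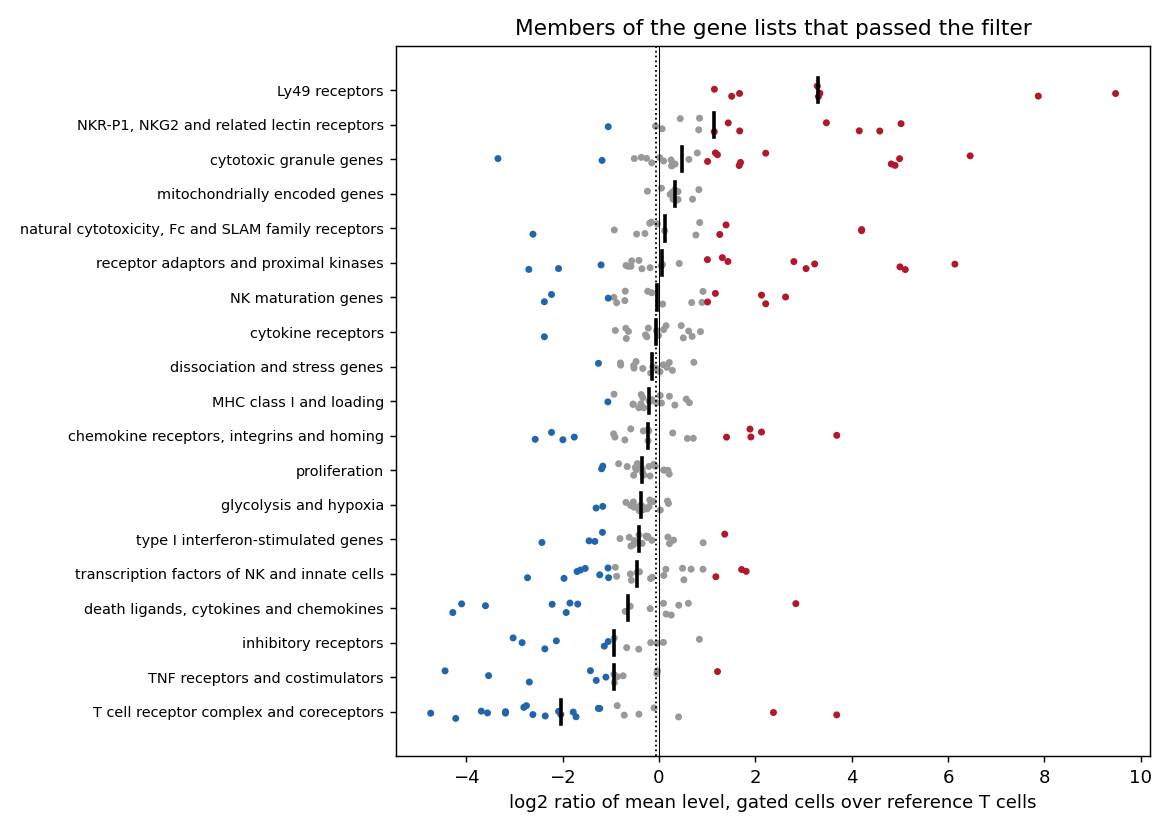
Each point is a gene that passed the filter, placed by its log2 ratio of gated cells over T cells (x axis), with 1 row per gene list. Red points are at least 2-fold higher, blue at least 2-fold lower, black bars are list medians and the dotted line is the median of all genes, with Ly49 receptors at 3.30 and the T cell receptor complex at -2.04. The medians drawn include the rule's 4 genes in the lists that hold them, and Ncr1 has no point, since its T cell level is 0 by the rule.

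All 8 Ly49 genes in the table passed the filter and were at least 2-fold higher in gated cells. Klra8 (Ly49H, known for recognising a cytomegalovirus protein) had a level of 2.87 in vehicle (95% Poisson interval 2.42 to 3.37), 1.38 under anti-PD-1 (1.17 to 1.62), 1.86 under ATT-I and 0 in the combination cell, and was found in 8, 20, 2 and 0 cells. It was found in 15 of 12274 T cells, 0.122%, at a level of 0.00229, which gives a log2 ratio of 9.48, the highest among the markers given with the rule apart from Ncr1. Klra8 was thus rare outside the gated cells, and it was detected in 30 of them.

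Klra4 (Ly49D) was likewise rare in T cells. Its level was 2.72 in vehicle (2.27 to 3.24), 1.52 under anti-PD-1 (1.30 to 1.76), 3.85 under ATT-I (2.89 to 5.02) and 0 in the combination cell, in 22 gated cells, against 0.448% of T cells and a log2 ratio of 7.87. The inhibitory receptors were less selective: Klra7 (Ly49G2) was the most abundant Ly49 transcript, at 1.98 in vehicle (1.51 to 2.55), 5.60 under anti-PD-1 (5.13 to 6.10), 6.32 under ATT-I and 0.722 in the combination cell, and 10.2% of T cells also held a UMI of it (log2 ratio 3.29). Klra1 (Ly49A) stood at 0.819 in vehicle (0.579 to 1.12), 3.07 under anti-PD-1 (2.71 to 3.47), 3.18 under ATT-I and 0 in the combination, and in 5.91% of T cells (3.31). The activating pair was higher in the vehicle than in the anti-PD-1 gated cells, and Klra1 and Klra7 were lower there. The counting intervals do not overlap, but they do not cover the spread between cells. Vehicle also held no CD3-high cell, and within CD3-low cells no Ly49 gene that passed was 2-fold apart between these arms. Of the remaining members, Klra9 (Ly49I) had a log2 ratio of 3.34, Klra5 (Ly49E) 1.67, Klra3 (Ly49C) 1.51 and Klra6 (Ly49F) 1.15. Against the 3591 T cells that hold a UMI of any Klra gene, Klra3, Klra5 and Klra6 stood on the other side, at -0.26, -0.10 and -0.62. Those T cells were chosen on these same genes, which raises their Klra levels, so the signs are a description.

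Single gated cells carried different Ly49 sets. A gated cell held UMIs of 2.28 of the 8 genes on average (highest 6), and 19 of the 109 held none. Thinned to 3000 UMIs per cell the mean was 1.73, against 0.26 in T cells thinned the same way (0.43 unthinned). The Ncr1-positive cells outside the gate had a thinned mean of 1.43, near that of the gate. Within the gate it was 1.51 in CD3-low and 2.20 in CD3-high cells. Thinned means by library were 1.59 in vehicle, 1.73 under anti-PD-1 and 2.43 under ATT-I, and the combination cell held 0. The most frequent set was Klra1, Klra6 and Klra7 together, in 9 cells, and all 9 were CD3-high. Among the 74 CD3-low cells, 14 held both Klra8 and Klra4, 12 only Klra8, 7 only Klra4 and 41 neither. Likeness of the Klra transcripts was not measured, and joint detection may include shared reads.

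**Figure D3:**
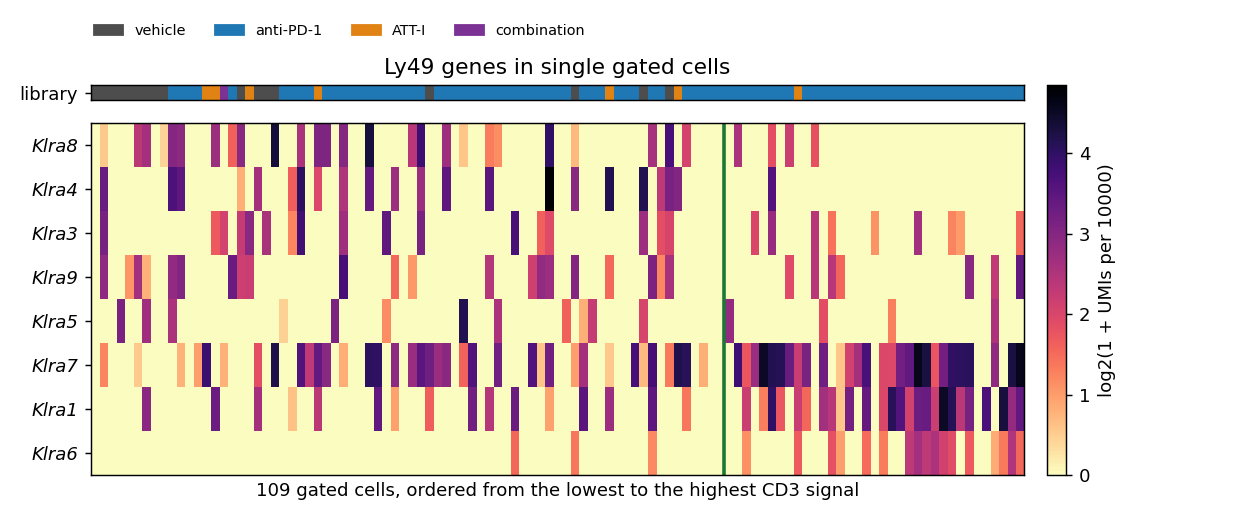
Each column is 1 of the 109 gated cells, ordered from left to right by CD3 signal, and each row is 1 of the 8 Klra genes, shaded by log2 of 1 plus UMIs per 10000, with a strip that gives the library. The green line marks the split: Klra8 and Klra4 fill mostly CD3-low cells (26 and 21 of 74), and Klra1, Klra6 and Klra7 are dense right of it.

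Of the 16 NKR-P1, NKG2 and related lectin genes measured, 13 passed, 7 were at least 2-fold higher (Klrb1a, Klrb1b, Klrb1c, Klrb1f, Klre1, Klrk1 and Klri2) and 1 lower (Klrg1, a receptor of terminally differentiated lymphocytes). Klrb1c, which encodes the NK1.1 antigen of C57BL/6 mice, was held by 97 of 109 gated cells, against 6.88% of T cells (log2 ratio 4.16). Its level was 2.66 in vehicle (2.25 to 3.11), 2.86 under anti-PD-1 (2.54 to 3.21), 4.77 under ATT-I (3.60 to 6.21) and 1.80 in the combination cell. Its levels overlapped between vehicle and anti-PD-1. Klrb1b, an inhibitory receptor for the lectin Clr-b, was at 1.81 in vehicle (1.48 to 2.18), 1.17 under anti-PD-1 (0.977 to 1.40), 1.36 under ATT-I and 1.44 in the combination, in 63 gated cells against 2.04% of T cells (5.02). Klrb1f had a log2 ratio of 4.58.

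The NKG2 receptors separated gated cells from T cells less. Klrk1 (NKG2D, which binds stress-induced ligands) had a level of 6.75 against 2.49 (1.44) and Klre1, a receptor that pairs with Klri proteins, 6.55 against 2.96 (1.15). Klrd1 (CD94), the partner of the NKG2A and NKG2C chains, stood at 12.6 against 7.02 (0.84), and Klrc1 (NKG2A) at 2.31 against 2.21 (0.06). Klrc1 thus did not separate gated cells from tumour T cells, and Klrd1 did so by less than 2-fold.

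Of 14 natural cytotoxicity, Fc and SLAM family genes that passed besides Ncr1, 4 were higher (Fcgr3, Pilrb1, Cd244 and Crtam) and 1 lower (Slamf6). Ncr1 (NKp46) itself, which the rule fixes, had levels of 3.36, 6.39, 3.95 and 5.05 in vehicle, anti-PD-1, ATT-I and the combination. Fcgr3 (CD16, the receptor for antibody-coated targets) was at 0.621 in vehicle, 0.362 under anti-PD-1, 0.890 under ATT-I and 0 in the combination, in 41 gated cells and 1.68% of T cells (log2 ratio 4.20). Pilrb1, an activating receptor that uses DAP12, had a log2 ratio of 4.21 at a low level (0.149).

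Among the adaptors and kinases next to these receptors, 21 passed besides Tyrobp, 8 were higher and 3 lower. Tyrobp, used by the rule, was at 15.1 in vehicle (14.1 to 16.1), 18.4 under anti-PD-1 (17.7 to 19.2), 21.1 under ATT-I (18.6 to 23.8) and 7.58 in the combination, against 0.255 in T cells. Fcer1g, which serves NKp46 and CD16, was not used by the rule and stood at 14.5, 19.1, 18.3 and 14.8 in the same order, against 2.21 in T cells (3.05). Sh2d1b1 (EAT-2), an adaptor of SLAM receptors, was read in 56 gated cells and 1.25% of T cells (5.11). The kinase Syk (5.00), the phospholipase Plcg2 (3.23) and the Src kinases Fgr (2.80) and Lyn (1.43) were higher, and Lat (-2.08) and Cd247 (-1.20), which serve the T cell receptor, were lower. Clnk, an adaptor of the SLP-76 family outside the lists, was read in 62 gated cells at 0.602 against 0.0367 (4.03), and at like levels in CD3-low (0.589) and CD3-high (0.622) anti-PD-1 cells.

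Of 24 cytotoxic granule genes that passed, 10 were at least 2-fold higher and 2 lower (Lyst and Gzmk), with a median of 0.48. Gzmc, a granzyme of strongly activated killer cells, was the most abundant: 112 in vehicle (110 to 115), 64.6 under anti-PD-1 (63.4 to 65.9), 111 under ATT-I (105 to 117) and 7.22 in the combination cell (4.41 to 11.1). It was read in 17 of 17, 55 of 84, 5 of 7 and 1 of 1 gated cells, and in 19.1% of T cells at a level of 0.847 (log2 ratio 6.46). Gzmc was thus detected in all 17 vehicle cells and 55 of the 84 anti-PD-1 cells, but its amount differed widely between cells. Vehicle cells held from 7 to 1676 Gzmc UMIs, so the mean rests more on some cells than on others. Its neighbours in the granzyme cluster were higher in gated cells as well. The log2 ratio was 4.90 for Gzmd, 4.82 for Gzme, 4.99 for Gzmg and 1.69 for Gzmf, and none of these 4 was found in the combination cell. Likeness of these granzyme transcripts was not measured, and they may exchange reads. The 11 deepest gated cells lost their 1-UMI values in the deposited scaling, and without them the Gzmf ratio was -0.39.

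Perforin and granzyme B differed less over the pooled libraries, and T cells carried both. Prf1 was at 12.1 in vehicle (11.0 to 13.3), 4.96 under anti-PD-1 (4.61 to 5.33), 7.76 under ATT-I (6.29 to 9.47) and 2.53 in the combination, with a log2 ratio over the T cells of the same library of 3.87 in vehicle and 0.80 in anti-PD-1. Gzmb was at 36.9 (35.1 to 38.6), 23.4 (22.6 to 24.3), 12.1 (10.3 to 14.1) and 3.61 in the same order, with ratios of 3.38 in vehicle and 0.89 in anti-PD-1. Its T cell level was 3.53 in vehicle and 12.6 in anti-PD-1, so the 2 ratios differ in both their parts. Gzma went the other way, at 3.48 in vehicle (3.07 to 3.92), 11.1 under anti-PD-1 (10.6 to 11.7), 0.928 under ATT-I and 0 in the combination, and only 43 gated cells held it. Nkg7, a granule membrane protein of killer lymphocytes, did not set the gated cells apart (log2 ratio -0.26).

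Among 16 death ligand, cytokine and chemokine genes that passed, Xcl1 was the only 1 at least 2-fold higher, and 7 were lower (Csf1, Areg, Ifng, Ccl1, Ccl5, Ccl3 and Ccl4; median of the list -0.65). Xcl1, which attracts cross-presenting dendritic cells, was at 12.2 in vehicle (11.3 to 13.2), 24.5 under anti-PD-1 (23.5 to 25.5), 12.3 under ATT-I (10.4 to 14.5) and 62.1 in the combination cell (53.1 to 72.1), against 3.09 in T cells (2.84). Ccl5 was at 1.68 (1.35 to 2.05), 18.8 (17.9 to 19.9), 7.62 (6.01 to 9.54) and 0.722 in the same order, each below the T cells of its own library (16.8 in vehicle and 50.6 in anti-PD-1). Ifng was not found in the 17 vehicle cells, a level under 0.0530 at a floor of 3 UMIs over the group, and was 1.03 under anti-PD-1, 0.187 under ATT-I and 1.08 in the combination, against 2.94 in T cells (-1.85). In 9 of the 17 vehicle cells a transcript with 1 UMI is listed at 0, so low vehicle levels are understated.

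Of 25 transcription factors of NK and innate cells, 3 were at least 2-fold higher (Irf8, Eomes and Bach2) and 8 lower, among them Tox (0.376 against 1.48, log2 ratio -1.97). Eomes, a T-box factor of conventional NK cells, was at 2.33 in vehicle (1.95 to 2.78), 0.758 under anti-PD-1 (0.617 to 0.922), 1.23 under ATT-I and 0 in the combination, against 0.313 in T cells (1.72). Its relative Tbx21 (T-bet) ran the other way, at 0.243, 0.795, 0.518 and 1.08, with ratios of -1.34 in vehicle and 0.71 in anti-PD-1. Irf8 was at 11.2 in vehicle (10.3 to 12.2), 4.78 under anti-PD-1 (4.41 to 5.16), 6.52 under ATT-I (5.19 to 8.09) and 9.02 in the combination, against 1.69 in T cells (1.81). Eomes and Irf8 were thus highest in the vehicle cells, where Tbx21 was lowest, at a level that the lost 1-UMI values may understate.

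Among the homing and integrin genes, Itgax, Ccr2, Itga2 and Itga1 were at least 2-fold higher in gated cells, and Cxcr4, S1pr1, Cx3cr1 and Cxcr6 were lower. Itga1 (CD49a, an integrin of tissue-resident lymphocytes) was at 2.04, 1.25, 1.53 and 0.361 in vehicle, anti-PD-1, ATT-I and the combination (log2 ratio 1.40). Itga2 (CD49b, the conventional NK integrin) was sparse, at 0.0266, 0.180, 0.197 and 0.722, and its ratio changed sign between vehicle (-2.45) and anti-PD-1 (2.06). The vehicle level rests on 2 UMIs of 1 cell, and 1-UMI values are lost in 9 of the 17 vehicle cells, so its sign there is uncertain. Cxcr6, a homing receptor of tissue-resident and tumour T cells, was 1.04 against 6.19 (-2.57). Of 12 type 1 innate lymphoid cell (ILC1) markers that passed, 3 were higher (Tmem176a, Tmem176b and Itga1) and 2 lower (Cxcr6 and Il7r).

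Inhibitory checkpoint receptors were low in gated cells: of 13 that passed none was at least 2-fold higher, 6 were lower and the median was -0.93. Pdcd1 (PD-1) was at 0.468 in vehicle, 0.423 in anti-PD-1 and 0 in both ATT-I and the combination, in 22 gated cells, against 2.86 in T cells (log2 ratio -2.84). Havcr2 (TIM-3) was at 0.0804 against 0.655 (-3.03) and Lag3 at 1.16 against 2.55 (-1.14). Of 13 TNF receptors and costimulators 1 was higher (Tnfsf14) and 6 lower. Cytokine receptors were close to T cells, with 0 of 17 higher and 1 (Il7r, 0.288 against 1.50) lower, and Il2rb, the receptor chain shared by IL-2 and IL-15, was at 7.14 against 4.43 (0.69).

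The marker lists of other cell types bear on what the gate could hold. These lists hold genes of the rule, so the counts here leave out Ncr1, Tyrobp, Cd3e and Cd8b1. Of the 18 other NK markers that passed, 15 were at least 2-fold higher and none lower (median 1.76), and of 17 T cell markers none was higher and 13 were lower (median -2.08). Both classes were chosen on Ncr1 and Cd3e, so genes that accompany these may follow the choice, and the counts are a description. The summed NK markers, 19 genes, had a median per cell of 103 both in gated vehicle cells and in gated anti-PD-1 cells, against 18.1 and 51.8 in the T cells of those libraries. Of 21 T cell receptor complex genes 14 were lower and 2 higher, Trdc (3.69) and Tcrg-C4 (2.38), constant regions of the delta and gamma chains that NK cells are also known to transcribe. Trdc was found in 31 gated cells, 27 of them CD3-low. Trbc1, the first beta constant region, was found in 104 gated cells, 17 of 17 in vehicle, at 6.36 against 10.5 (-0.72), and Trbc2 stood lower (7.12 against 16.7, -1.23). The 2 neutrophil and mast cell genes in the table were at 0 in all gated cells. The monocyte list summed to a mean of 7.92 in gated cells and 5.67 in T cells, most of it Ccr2 and Ly6c2. The part of other cell types in the gated cells was not tested.

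The CD3-low and CD3-high cells of anti-PD-1 differed in which NK genes they carried. Of 8003 genes found in at least 10% of either class, 788 were at least 2-fold higher in the CD3-low cells (9.85%) and 870 lower (10.9%), from 50 and 34 cells. The classes were cut on the CD3 signal, so CD3 genes are not counted as a difference here. Of 8 Ly49 genes, Klra4 and Klra8 were higher in the CD3-low cells and Klra1, Klra6 and Klra7 lower. Klra8 was read in 16 of 50 CD3-low cells at 2.05 and in 4 of 34 CD3-high cells at 0.392. Klra1 was read in 10 of 50 at 1.12 (0.882 to 1.40) and in 25 of 34 at 5.95 (5.11 to 6.89), and Klra6 in 2 of 50 and 16 of 34. Klra7 was read in 24 of 50 at 3.57 (3.13 to 4.05) and in 27 of 34 at 8.58 (7.61 to 9.64). The 2 activating genes were thus found more often in CD3-low cells and Klra1 and Klra6 in CD3-high cells, while Klra7 was common in both and higher in CD3-high cells.

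The order held at equal depth. Thinned to 3000 UMIs, Klra8 was found in 24% of CD3-low and 5.88% of CD3-high anti-PD-1 cells, Klra1 in 16% and 61.8%, and Klra6 in 2% and 35.3%. In T cells of the same library the thinned shares were 0.0441%, 3.90% and 4.05%. Klrb1c stayed close, at 58% and 50% against 3.48%, so the NK1.1 gene marked both classes. CD3-low vehicle cells had thinned shares of 29.4% for Klra8, 11.8% for Klra1 and 0% for Klra6, nearer the CD3-low than the CD3-high anti-PD-1 cells.

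**Figure D4:**
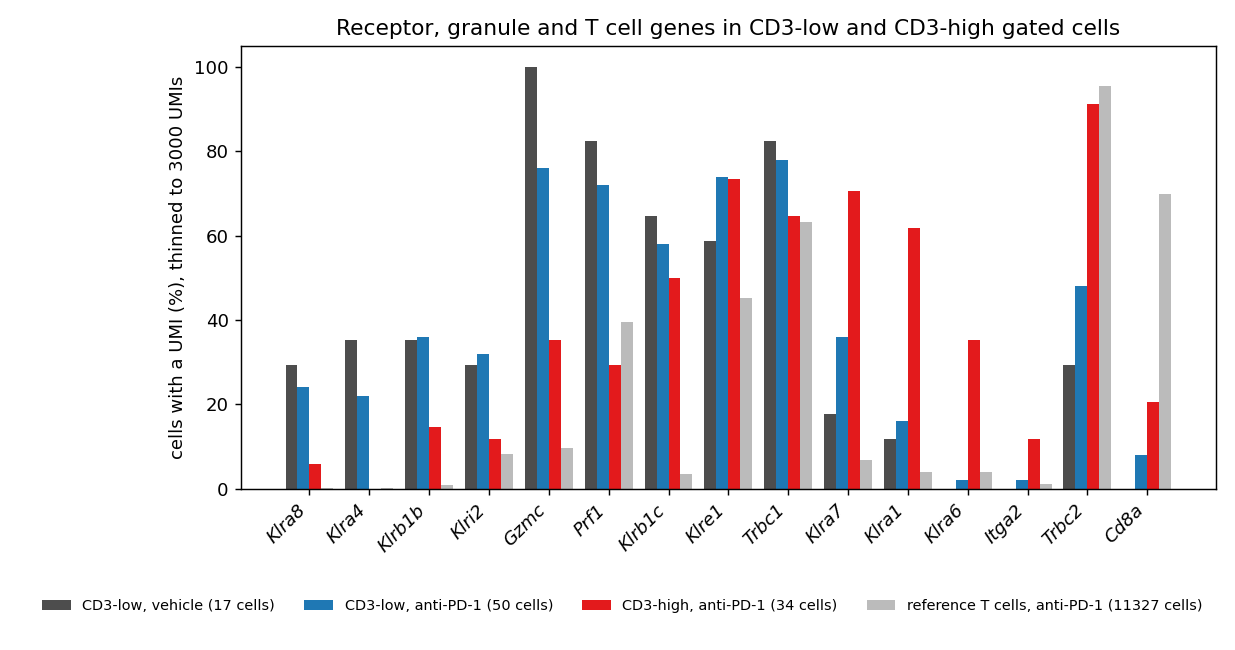
Bars give the percentage of cells with a UMI of each gene after thinning every cell to 3000 UMIs, in CD3-low vehicle (17 cells), CD3-low anti-PD-1 (50), CD3-high anti-PD-1 (34) and T cells of anti-PD-1. Klra8, Klra4, Gzmc and Prf1 are tall in both CD3-low classes, Klra1, Klra6 and Klra7 in the CD3-high class, and Klrb1c in all 3 gated classes (58% and 50% in the anti-PD-1 classes).

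Granule genes also differed between the classes. Of 25 that passed, 9 were higher in CD3-low cells (Cst7, Prf1, Gzma, Gzmc, Gzmd, Gzme, Gzmf, Gzmg and Serpinb9b) and 2 lower (Stx11 and Lyst). Gzmc was at 103 (101 to 105) in 40 of 50 CD3-low cells and 8.83 (8.08 to 9.62) in 15 of 34 CD3-high cells. Thinned, it was found in 76% and 35.3% of them, against 9.53% of T cells. Prf1 was at 6.74 (6.21 to 7.31) and 2.34 (1.98 to 2.75), the second below the T cells of that library (2.85). Gzma was at 17.2 and 2.21, means that rest largely on few cells, and Irf8 at 6.73 and 1.90. Xcl1 was level within counting error, at 24.8 (23.7 to 26.0) and 24.0 (22.3 to 25.7), and both were above its T cell level of 3.03.

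Further genes separated the classes. Ikzf2 (Helios, a transcription factor found in some T and NK cells) was at 3.55 in CD3-high and 0.683 in CD3-low cells (log2 -2.38), Ly6c2, a surface antigen of memory lymphocytes and monocytes, at 8.17 and 1.22 (-2.74), and Ccl5 at 35.2 and 7.75 (-2.18). Of 21 homing genes 7 were lower in CD3-low cells, among them Cx3cr1, at 0.181 in the CD3-high and 0 in the CD3-low cells, and 1 (Ccr2) was higher. On the CD3-low side stood Spp1 (osteopontin, a secreted glycoprotein) at 12.2 against 1.06 (3.53). Both classes stood above T cells for Fcer1g (22.3 and 14.4, against 2.29 in T cells of the library) and Car2, a carbonic anhydrase (6.85 and 3.44, against 0.208 in all T cells). CD3-high cells held a Cd8a UMI in 13 of 34 cells (20.6% thinned, against 69.8% of T cells) and a Cd4 UMI in 4 of 34.

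Set against all T cells, the 35 CD3-high cells had 431 of 7369 genes at least 2-fold higher (5.85%) and 619 lower (8.4%). Of 7 Ly49 genes that passed, 6 were higher, with a median of 2.98, and of 17 NK markers, without the rule's genes, 11 were higher, with a median of 1.13. Of 23 granule genes 2 were higher (Gzmc and Serpinb9) and 2 lower, with a median of 0.03, and Prf1 (-0.28), Gzmf (-3.40) and Gzmg (-1.18) lay on the other side of the T cells than the whole gate did. Gzmg was a single UMI in the CD3-high cells of anti-PD-1, so its sign is uncertain. The 74 CD3-low cells had 410 of 7822 genes higher (5.24%) and 502 lower (6.42%): 10 granule genes were higher and 3 lower (median 0.72), and Klra6 stood at -1.69. Without the genes of the rule and of the split, the T cell receptor complex had a median of -2.25 in CD3-low and -0.95 in CD3-high cells, over 18 genes each. The pooled gate thus averages over cells that differed in granule genes and in single Ly49 genes.

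The 183 Ncr1-positive cells outside the gate gave a nearer comparison. Of 7800 genes, 359 were at least 2-fold higher in gated cells (4.6%) and 327 lower (4.19%). Klra8 was at 1.63 in gated and 0.0508 in the other cells (log2 ratio 5.00), Klra4 had a ratio of 4.30, and Gzmc was at 74.5 and 3.61 (4.37). Klra6 was at least 2-fold lower in the gate (0.461 against 1.17, -1.35), and the other 5 Ly49 genes were less than 2-fold apart, with a median of 0.13 over the 8. Of 22 interferon-stimulated genes 8 were lower and none higher. Without the 4 genes of the rule, 10 of 18 NK markers were higher in the gate and none lower, and of 23 T cell receptor complex genes 16 were lower and 1 higher. Cells outside the gate had Cd3e or Cd8b1 at or above Ncr1, or no Tyrobp UMI. Genes that accompany those of the rule may follow that choice, so these counts are a description.

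Between arms only vehicle and anti-PD-1 held 10 or more gated cells. Of 8386 genes, 1091 were at least 2-fold higher in anti-PD-1 (13%) and 1205 lower (14.4%), from 84 and 17 cells of 1 library each. The largest ratios in the higher direction included Cd3d (6.39) and Trac (5.59), and vehicle held no CD3-high cell. Among CD3-low cells alone Cd3d was at 1.08 against 0.0605 and Trac at 0.794 against 0.0495, so both stayed higher in anti-PD-1. The comparison was repeated within CD3-low cells, 50 against 17, where of 8397 genes 1067 were higher (12.7%) and 1313 lower (15.6%). In 9 of these 17 vehicle cells and 2 of the 50 anti-PD-1 cells a transcript with 1 UMI is listed at 0. Sparse genes, Cd3d and Trac among them, are therefore understated more in vehicle. Within CD3-low cells no Ly49 gene of 7 was 2-fold apart, with a median of -0.22. The differences in Klra1 and Klra7 seen in the whole gate did not pass 2-fold. Klra8 was at 2.05 against 2.87 and Klrb1b at 1.64 (1.34 to 1.99) against 1.81 (1.48 to 2.18).

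Cytokine and chemokine genes were higher in anti-PD-1 within CD3-low cells: 8 of 15 (Xcl1, Ifng, Osm, Csf2, Ccl1, Ccl3, Ccl4 and Ccl5) were at least 2-fold higher, 1 (Tnf) was lower and the median was 1.02. The 1-UMI values lost in 9 of the 17 vehicle cells lower sparse genes there, and their part in the list counts between arms was not tested. Ccl4 was at 2.73 (2.34 to 3.17) in 29 of 50 cells, against a single UMI in 1 of 17 vehicle cells (level 0.0365, interval 0.000924 to 0.203). Ccl5 was at 7.75 against 1.68, and Xcl1 at 24.8 against 12.2. T cells of the libraries differed in the same direction for Ccl5 (50.6 against 16.8) and Ccl4 (10.3 against 1.59) but not for Xcl1 (3.03 in both). Of 20 interferon-stimulated genes 11 were higher and none lower (median 1.07), and their sum per cell had medians of 7.92 in anti-PD-1 and 7.44 in vehicle CD3-low cells, which overlapped in range (0 to 87.9 and 2.13 to 35.7).

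Of 25 granule genes 3 were higher in anti-PD-1 CD3-low cells (Serpinb9b, Gzma and Gzmk), near the 12.7% of all genes, and 7 were lower (Gzmd, Gzme, Gzmf, Gzmg, Rab27a, Gnptab and Serpinb9), against 15.6% of all genes, with a median of 0.07. Gzmc was at 103 (101 to 105) against 112 (110 to 115), and Gzma at 17.2 (16.3 to 18.1) against 3.48 (3.07 to 3.92). Both Gzma means rest largely on few cells: single anti-PD-1 cells held 518, 287, 145 and 99 UMIs, and single vehicle cells 121, 103 and 42. The intervals do not cover this spread. Eomes was at 0.872 (0.685 to 1.10) against 2.33 (1.95 to 2.78) and Tnfrsf9 (4-1BB, an activation-induced costimulator) at 3.55 (3.16 to 3.98) against 8.14 (7.39 to 8.95), both lower in anti-PD-1. Of 12 ILC1 markers 7 were higher in anti-PD-1 and none lower (median 1.39), Cxcr6 and Il7r among them, with sparse genes understated in vehicle by the lost 1-UMI values. T cell receptor genes were also higher there, 11 of 20 (median 1.16), as was the median sum of 15 T cell markers per cell outside the rule and the split (12.7 against 8.53), and their part in these differences was not tested.

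**Figure D5:**
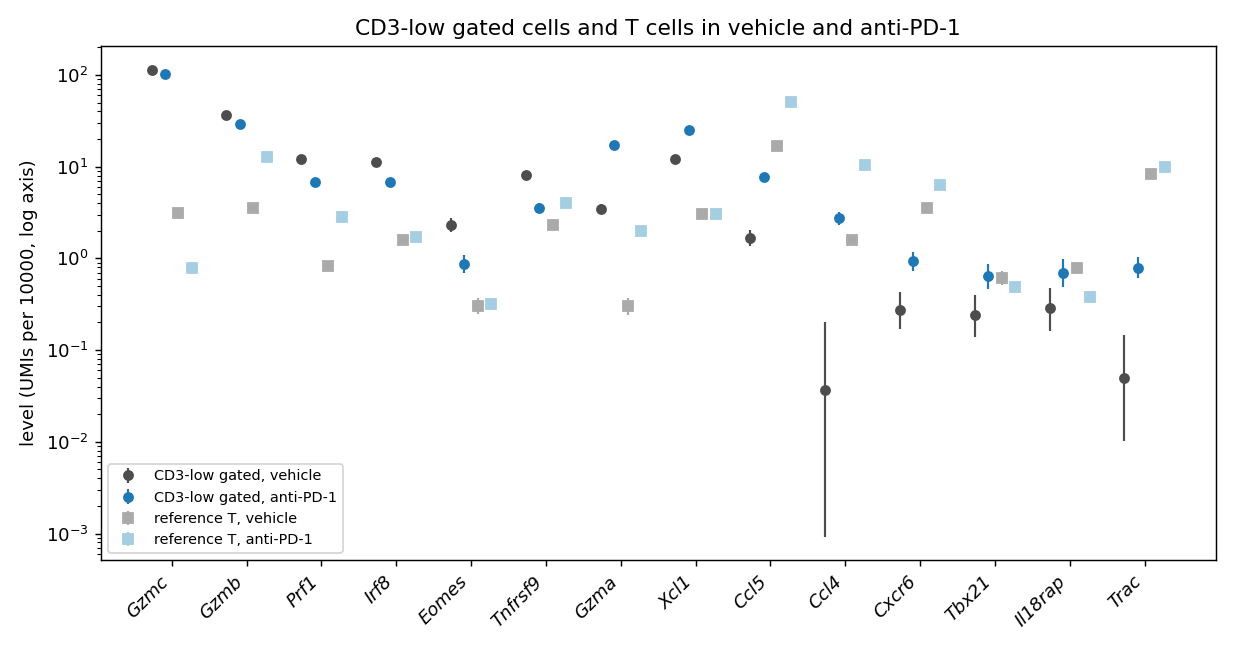
Points give the level of each gene (UMIs per 10000, log axis) in CD3-low gated cells (circles) and T cells (squares) of vehicle and anti-PD-1, with 95% Poisson intervals that cover counting error only. Prf1, Irf8, Eomes and Tnfrsf9 sit higher in vehicle than in anti-PD-1 CD3-low cells, and Gzma, Xcl1, Ccl5, Ccl4 and Trac lower (Eomes at 2.33 and 0.872, Ccl5 at 1.68 and 7.75). The Gzma means of the CD3-low cells rest largely on few cells.

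Proliferation genes did not mark the gated cells. The 20 genes summed to a median of 14.8 per gated vehicle cell (1.96 to 139) and 10.6 per gated anti-PD-1 cell (0 to 187), against 84.8 and 16.2 in T cells. Within CD3-low cells 1 of the 20 was higher in anti-PD-1 and 4 were lower, against 12.7% and 15.6% of all genes. Depth and composition moved with the arms as well: mitochondrially encoded genes summed to a median of 389 in vehicle and 217 in anti-PD-1 CD3-low cells, against 388 and 208 in T cells, and none of 13 was higher in anti-PD-1 and 5 were lower. Their part in the differences between arms was not tested.

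Gated cells varied most in granule genes and chemokines. By variance over mean of thinned counts, the most variable genes were Gzmc (66.0), Gzmf (41.9), Gzma (36.7), Gzmd (29.5), Ccl4 (18.6), Cxcl10 (18.5), Gzme (16.5), Gzmb (16.3), Ccl5 (14.2) and Xcl1 (10.8). The granule list summed to a median of 175 per vehicle cell (57.7 to 746), 178 per CD3-low anti-PD-1 cell (32.4 to 960) and 69.1 per CD3-high cell (highest 272). The medians of both CD3-low classes thus stood above that of the CD3-high cells, and the ranges overlapped.

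Outside the lists, and among genes at least 2-fold higher in both vehicle and anti-PD-1, the highest ratios over the pooled libraries were those of Trdv2-2 (log2 ratio 6.79), Vegfc (6.66), Dixdc1 (6.02), B4galt6 (5.80) and Gm15518 (5.77). In vehicle alone the order differed, with B4galt6 at 6.75 and Trdv2-2 at 3.03. Vegfc, a lymphatic growth factor, was at 0.243 in vehicle, 0.205 under anti-PD-1, 0.505 under ATT-I and 0.722 in the combination, in 28 gated cells, against 0.00233 in T cells. Scimp, a membrane adaptor, was found in 42 gated cells (0.461 against 0.0150, 4.94). The lowest included Ikzf4 (-5.75), Art2b (-5.54) and Cd200 (-5.41), each found in 1 gated cell, and Matk (-3.34), a kinase that regulates Src kinases. Themis, a T cell signalling protein, was at 0.0321 against 0.857 (-4.74).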

How the data were processed

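Single-cell RNA was measured with the 10x Genomics droplet method, 1 library per arm, per the labels' protocols. Cell Ranger, Seurat and build mm10 are named, per the submitters' processing notes, and versions and cell filters are not given in the sources used here. The deposited matrix has 13518 genes and 13213 cells. The authors' values are on a natural log scale, of 1 plus UMIs per 10000, from which each library has a constant taken off and negatives zeroed. All values gave whole UMIs (within 0.02), but genes with 1 UMI are lost in cells of 35478 UMIs and more. Of the barcodes, 1 is in 2 libraries, outside the gate.

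From the recovered UMIs, levels were averaged over cells, and genes found in 10% of either class were compared, with 2-fold as the mark and 3 UMIs as the floor for a class at 0. Doublets were not called or removed. Intervals are exact Poisson or Clopper-Pearson at 95%. Python 3.11.15, numpy 2.4.6, scipy 1.17.1 and pandas 2.3.3 were used, and the scripts were tested on simulated data. Gene positions are from GENCODE for GRCm38.

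Named genes were the rule's genes and markers, the 3 members furthest from T cells and the most abundant member of each list, 12 per side outside the lists, the 10 most variable and 5 per side between arms; other genes, and the CD3 split, were chosen after their values were seen. The members and lists were chosen with earlier results of these data known. Counts and medians of lists that hold genes of the rule were also taken without them, a choice made after seeing the data. A result among the homing genes is not reported here.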

Additional observations from a re-analysis of the deposited data

Results flagged for a closer look

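Il18rap, a chain of the IL-18 receptor, stood apart because its difference between gated cells and T cells had opposite signs in 2 libraries. In vehicle its level was 0.290 (95% Poisson interval 0.162 to 0.479) in gated cells and 0.791 (0.676 to 0.919) in T cells, a log2 ratio of -1.45. In anti-PD-1 it was 0.820 (0.633 to 1.05) and 0.377 (0.365 to 0.390), a ratio of 1.12. The difference between the 2 ratios, vehicle less anti-PD-1, was -2.57, and it was not tested. A transcript with 1 UMI is listed at 0 in 9 of the 17 gated vehicle cells and 12 of the 128 vehicle T cells. The same holds in 2 of the 84 gated anti-PD-1 cells. No gated cell held more than 5 Il18rap UMIs, so its gated vehicle level may be understated, and the part of this loss was not tested. CD3-low anti-PD-1 cells had a level of 0.701 (0.485 to 0.979) and CD3-high cells 0.996 (0.677 to 1.41).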

How the results depend on the processing

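The gate's size depended on how CD3 transcripts and depth were treated. Under a strict gate without CD3 and CD8 UMIs the share was 6.45% in vehicle, 0.0318% under anti-PD-1, 0.673% under ATT-I and 0 in the combination. In 8 of the 10 strict vehicle cells and 1 of the 4 strict anti-PD-1 cells, 1-UMI values are lost, so a single CD3 or CD8 UMI would not be seen there. Thinned to 3000 UMIs it was 4.58%, 0.522% under anti-PD-1, 1.44% under ATT-I and 0 in the combination. In anti-PD-1 CD3-low cells were 0.398%, or 0.462% with the split at the 5th percentile. Ly49 genes per cell were 1.73 thinned, 1.69 under the strict gate and 2.74 in CD3-high cells, against 2.28.

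The 315 higher genes became 910 under the strict gate, 187 thinned, 2327 with no filter and 656 without the anti-PD-1 library. The 362 lower genes became 1262, 222, 1260 and 1569 under those settings, 634 with a filter at 5% of cells, 1177 with equal weight for vehicle and anti-PD-1, 652 against T cells with a Cd4 UMI and 619 for CD3-high cells. Lists with a median of at least 1 were 2 as reported and 1 against T cells with a Cd8a or a Klra UMI. The 1091 genes higher in anti-PD-1 than in vehicle became 560 thinned and 1769 under the strict gate.

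Of the 19 list medians, none that was at least 2-fold away from T cells changed sign. Of 147 named genes, Klra6 changed sign under the strict gate (-1.82), against Klra-positive T cells (-0.62), in CD3-low cells (-1.69) and at the 5th percentile (-1.08). Klra3 (-0.26) and Klra5 (-0.10) did so against Klra-positive T cells, a reference chosen on the Klra genes themselves. In CD3-high cells Gzmf (-3.40), Gzmg (-1.18, on 1 UMI in those of anti-PD-1), Prf1 (-0.28) and Mtm1 (-1.67) did so. So did Gzmf without the cells that lost 1-UMI values (-0.39), Mtm1 in anti-PD-1 only (-0.058) and without vehicle (-0.011), Tmem176b without anti-PD-1 (-0.34), and Ccnb1 (0.25) and Oasl1 (-1.06) under the strict gate. The causes were not tested. No paired analysis was possible because each arm is 1 library. The number of cells limits the 17 vehicle, 7 ATT-I and 1 combination cells.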

Other observations

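Tsix, the antisense partner of Xist, differed by library in gated cells and T cells alike: its gated level was 2.31 in vehicle (16 of 17 cells), 0.137 under anti-PD-1, 0.108 under ATT-I and 1.44 in the combination cell, and T cells of the same libraries had 4.27, 0.183, 0.414 and 3.05. The strand used in counting is not given in the sources used here, so reads of Tsix and Xist cannot be told apart. Cers4, a ceramide synthase, was at 0.0188 in gated vehicle cells and 0.495 in gated anti-PD-1 cells, while its T cell levels were 0.711 and 0.787. No gated cell held more than 3 Cers4 UMIs, and 1-UMI values are lost in 9 of the 17 vehicle cells. Cxcl10 was at 0.177 in vehicle, 0.858 under anti-PD-1, 7.39 under ATT-I, where 1 cell held it, and 0.722 in the combination.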
